A study of Mus musculus with 6 samples.

Results

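A group of 10 genes of the mitochondrial inner membrane proteases and of mitochondrial fusion and fission were followed in the mouse pancreatic cancer line KPC001, in which CD133-positive cells were compared with CD133-negative cells. The 10 genes are the proteases Yme1l1, Oma1, Afg3l2 and Spg7, the fusion GTPases Opa1, Mfn1 and Mfn2, the fission GTPase Dnm1l, and the prohibitins Phb and Phb2. They were found by the gene symbol of the array's annotation, which assigned 22 of 45281 probes to them, among 19057 genes with a symbol in all. The set was chosen by the rise of a Yme1l1 probe in CD133-positive cells, one of the larger rises in these same arrays, so the differences between the populations are given here for the 10 genes as a description, with no p-value, and support nothing beyond it.

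KPC001 derives from a KPC mouse, in which engineered alleles are recombined by Cre in the pancreas and tumours form there. The alleles of this particular line, its clonality and its passage are not stated in the labels. The tested samples were 3 CD133-positive arrays, set against 3 CD133-negative arrays, all from the same untreated line grown in high-glucose medium with serum, and the labels describe all 6 as tumour initiating cells. Nothing in the labels says that the 3 samples of a population came from separate cultures or sorts. A p-value here therefore reflects only how far these samples scatter, which may be technical scatter. Each array detected 17123 to 18057 probes, and a probe rested on a median of 37 to 41 beads.

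The transcript of the sorted marker did not check the labels, because Prom1, which encodes CD133, was not detected on any of the 6 arrays by any of its 3 probes. Of 8 epithelial and ductal markers, 7 were detected on all 6 arrays, among them Cdh1, Cldn4 and Krt18, while Epcam was detected on no array. Of 6 mesenchymal markers, 5 were detected on all arrays, among them Fn1, Twist1 and Vim. The summed normalised intensity of the epithelial list was 23871 to 24767 in CD133-positive arrays and 25978 to 26648 in CD133-negative arrays, which did not overlap. Markers of other cell types were few and dim. Of 6 leukocyte markers 0 were detected on all 6 arrays, and the list's summed intensity was 84.7 to 93.0 in CD133-positive and 106.5 to 108.5 in CD133-negative arrays. Only 2 of the 6 had a tested probe, so this sum includes values at background and does not show that leukocytes were present. Cd3e and Itgam were detected on no array. The summed intensities of the fibroblast, endothelial and acinar lists overlapped between the populations. Acta2, Col1a1, Egfl7 and Cela1 of these lists were detected on all 6 arrays, and Lum, Cdh5, Tek, Emcn, Amy2a5, Cpa1, Gcg and Ins2 were detected on no array. The part of the differences in summed epithelial and leukocyte intensity in the results below was not tested. Fewer cells of a type and less RNA per cell cannot be told apart in such bulk samples.

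Mitochondria fuse and divide continually. Fusion of the outer membrane is carried out by the mitofusins Mfn1 and Mfn2 and fusion of the inner membrane by Opa1, while Dnm1l (also called DRP1) is recruited from the cytosol and constricts the organelle. Opa1 exists in long forms anchored in the inner membrane and in short forms made by proteolysis. Yme1l1, the AAA protease whose active site faces the intermembrane space, and Oma1, a stress-activated metalloprotease, make these cuts, and Afg3l2 and Spg7 form the AAA protease on the matrix side. Phb and Phb2 assemble into ring complexes in the inner membrane that hold the matrix-side protease and protect Opa1 from excessive cleavage.

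Of the 22 probes, 19 were tested because 3 or more arrays detected them (detection p under 0.05), and they covered 9 of the 10 genes. The 3 others were detected on no array. They were the only Phb probe and 1 probe each of Mfn1 and Dnm1l. A single one passed limma's moderated test, with p adjusted by Benjamini-Hochberg across the 17219 probes tested and a threshold of 0.05, and it was the Yme1l1 probe that led to the choice of the set. Among the 17219 probes 1.53% passed, with 216 (1.25%) higher and 48 (0.279%) lower in CD133-positive cells. With a median shift in place of quantile normalization, 25 passed higher and 12 lower. The groups did not overlap for 8 of the 19 probes, 6 higher and 2 lower, against 23.1% of all tested probes. Because this contrast chose the set, nothing is read from either count. The median log2 difference was 0.03 over the 19 probes and -0.02 over all tested probes, with 10 of the 19 above 0 and 9 below.

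Yme1l1 was read by 3 probes, and they did not give the same picture. On ILMN_2505307 the deposited intensities were 448.8, 394.3 and 386.8 in the CD133-positive arrays, against 258.4, 268.4 and 260.5 in the CD133-negative arrays. The bead standard errors on that probe were 9.97 to 21.8 intensity units. After background correction and normalization the log2 intensities were 8.44, 8.33 and 8.33 in CD133-positive arrays and 7.14, 7.35 and 7.37 in CD133-negative arrays. All 3 CD133-positive arrays thus lay above all 3 CD133-negative arrays. The probe rose by 1.08 ± 0.10 on the log2 scale (SE of the fit, n = 3 per group), a 2.11-fold difference, and it ranked 10 among the rises of all tested probes. It was 0.75 without background correction. The probe no longer passed the threshold when any 1 of the CD133-positive arrays was left out, although its difference stayed between 1.04 and 1.10 in those fits.

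On ILMN_1251206, which was detected on all 6 arrays, Yme1l1 had log2 intensities of 6.15, 6.04 and 6.17 in CD133-positive arrays, against 6.30, 6.03 and 6.38 in CD133-negative arrays. The populations overlapped on this probe, with a difference of -0.11 ± 0.11. On ILMN_2516374 the log2 intensities were 5.23, 5.13 and 5.45 in CD133-positive arrays and 4.60, 4.999 and 4.68 in CD133-negative arrays. That probe was near background: it was detected on all 3 CD133-positive arrays and on 1 of the 3 CD133-negative arrays. Its groups did not overlap, and its difference was 0.51 ± 0.14, which did not pass and was 0.15 without background correction. The highest and the lowest of the 3 differences lay 1.19 apart on the log2 scale. Over 3616 genes with 2 or more tested probes the median gap was 0.22, and over the 6 such member genes it was 0.52. A gap tends to widen with the number of probes, which was not matched here. Choosing Yme1l1 by its highest probe favours a wide gap, so the gap was not tested, and neither was its cause. With its tested probes averaged Yme1l1 differed by 0.49. Probe sequences were not used here, so the transcript forms that each probe reads were not compared.

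**Figure D1:**
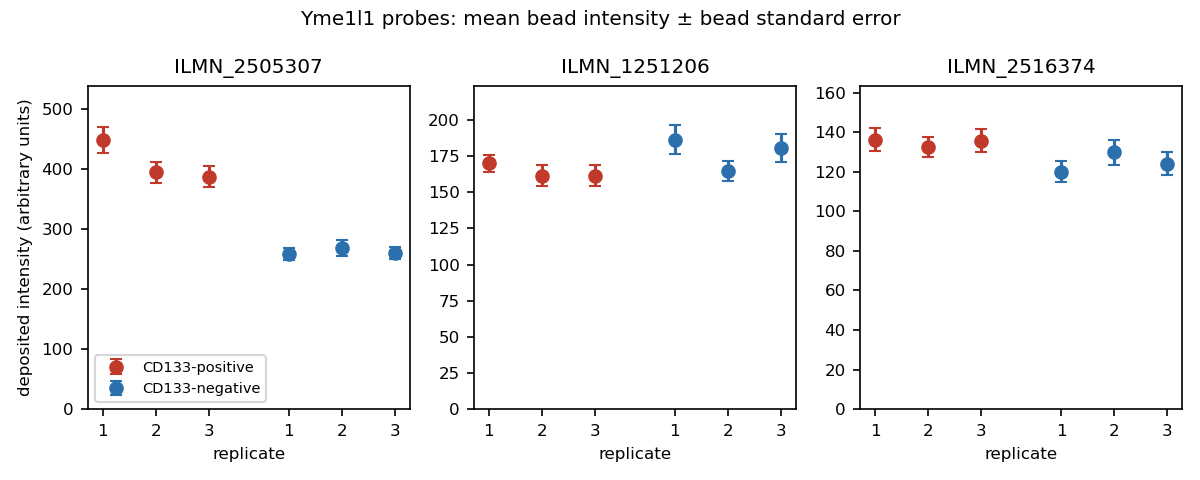
Deposited intensity of the 3 Yme1l1 probes on each array (vertical axis, arbitrary units, each panel from 0 with its own range; horizontal axis, replicate number within the population), with the bead standard error as bars. On ILMN_2505307 the CD133-positive arrays sit between 386.8 and 448.8 and the CD133-negative arrays between 258.4 and 268.4, while on ILMN_1251206 the populations overlap.

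The sequence around the annotated start of Yme1l1 is shown with those of Opa1 and Prelid1. Opa1 is the proteolytic target of Yme1l1 and the member with the next highest difference. Prelid1 encodes a short-lived lipid carrier and is described below as the pathway gene that passed, lower in CD133-positive cells. The windows are RefSeq's, 250 bases before and 50 bases after the start on build GRCm38.p6, at chr2:23156255-23156554 for Yme1l1, chr16:29579084-29579383 for Opa1 and chr13:55321805-55322104 for Prelid1, all on the plus strand and written 5′ to 3′. Capitals mark CCGGAAG, a core bound by ETS factors such as GABPA, and the core of the NRF1 motif, which reads GCGCA, then any base, then GCGC. Both were searched on both strands, and none of these windows holds both. NRF1 and GABPA are known regulators of nuclear genes for mitochondrial proteins.
Yme1l1: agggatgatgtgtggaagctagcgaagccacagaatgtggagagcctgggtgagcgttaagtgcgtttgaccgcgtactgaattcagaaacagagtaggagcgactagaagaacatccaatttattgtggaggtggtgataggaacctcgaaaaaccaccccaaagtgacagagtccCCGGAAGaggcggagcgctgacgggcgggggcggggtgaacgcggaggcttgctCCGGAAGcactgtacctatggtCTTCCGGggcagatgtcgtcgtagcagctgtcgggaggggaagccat
Opa1: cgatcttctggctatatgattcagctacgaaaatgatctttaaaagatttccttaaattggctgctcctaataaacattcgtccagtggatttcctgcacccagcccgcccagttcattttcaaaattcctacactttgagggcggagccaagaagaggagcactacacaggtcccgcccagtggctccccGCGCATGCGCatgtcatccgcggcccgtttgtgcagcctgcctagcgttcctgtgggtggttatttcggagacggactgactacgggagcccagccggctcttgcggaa
Prelid1: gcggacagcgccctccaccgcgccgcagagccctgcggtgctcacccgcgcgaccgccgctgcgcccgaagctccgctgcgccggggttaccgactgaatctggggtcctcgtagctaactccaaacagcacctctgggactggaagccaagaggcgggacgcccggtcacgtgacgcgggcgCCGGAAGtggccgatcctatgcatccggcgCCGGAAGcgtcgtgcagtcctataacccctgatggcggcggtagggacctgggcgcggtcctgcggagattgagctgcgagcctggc
The Yme1l1 window holds 3 matches to the ETS core and 0 to the NRF1 core, that of Opa1 holds 0 and 1, and that of Prelid1 holds 2 and 0. Of the 9 member genes whose windows were searched (all but Afg3l2), 4 held the ETS core (Yme1l1, Mfn1, Dnm1l and Phb2) and 4 the NRF1 core (Oma1, Spg7, Opa1 and Phb). A gene with several annotated starts was counted if any of its windows held the motif. Of all 32851 windows in the table, 8.86% held the ETS core and 4.6% the NRF1 core. These shares, and those of the motifs below, are per window while the member counts are per gene, so they are unlike measures. Of 3 further motifs searched on both strands, the GC box GGGCGG was in windows of 8 of the 9 genes (35.7% of all windows), CCAAT in 5 (37.4%) and the cyclic AMP element TGACGTCA in 0 (1.79%). A match is a description of the letters and not evidence of binding.

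Oma1 and Spg7 had no probe that passed. Oma1, which cuts Opa1 when the membrane potential is lost, had log2 intensities of 9.03, 8.76 and 8.93 in CD133-positive arrays, against 8.99, 8.87 and 9.06 in CD133-negative arrays. Its populations overlapped on its single probe ILMN_2764865, with a difference of -0.07 ± 0.10 (-0.23 with a median shift, which lowers the median of all tested probes to -0.13). Spg7, the paraplegin subunit of the matrix-side protease, had 9.29, 9.24 and 9.14 in CD133-positive arrays and 9.40, 9.43 and 9.47 in CD133-negative arrays on ILMN_2600309. That probe was lower in every CD133-positive array, with a difference of -0.21 ± 0.08 (-0.37 with a median shift), while the second Spg7 probe, ILMN_2742420, overlapped at 0.00 ± 0.10 (-0.15 with a median shift).

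Afg3l2, the partner of Spg7 that can also form the protease alone, was read by 3 probes of which the differences had both signs. On ILMN_2524489 it had 6.97, 6.76 and 6.97 in CD133-positive arrays, against 6.60, 6.23 and 6.38 in CD133-negative arrays. The CD133-positive arrays were all higher on this probe, by 0.50 ± 0.12, which did not pass and was 0.25 without background correction, where it passed. The brightest Afg3l2 probe, ILMN_2691982, overlapped, with 0.03 ± 0.12 (-0.08 with a median shift), and the dimmest, ILMN_1252992, had -0.23 ± 0.11, also with overlap. The highest and the lowest Afg3l2 difference lay 0.73 apart.

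Among the fusion genes, Opa1 had the highest difference outside Yme1l1. On ILMN_1243717 its log2 intensities were 5.65, 5.69 and 5.94 in CD133-positive arrays and 5.38, 5.01 and 4.97 in CD133-negative arrays. Every CD133-positive array was above every CD133-negative array, by 0.64 ± 0.14, which did not pass and was 0.20 without background correction. On ILMN_1247460 the values were 5.90, 6.43 and 5.87 in CD133-positive arrays, against 5.36, 5.63 and 5.90 in CD133-negative arrays. These overlapped, since the third CD133-negative array reached the level of 2 CD133-positive arrays, and the difference was 0.44 ± 0.19. On ILMN_1218742 the difference was -0.14 ± 0.21, the largest SE among the 19 probes, and 1 CD133-negative array was not detected there. Without background correction ILMN_1247460 had 0.16 and ILMN_1218742 had -0.04. All 3 Opa1 probes were dim, and the size of their differences depended on the background correction.

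The mitofusins showed no common direction. Mfn1 had 9.29, 9.33 and 9.16 in CD133-positive arrays, against 9.32, 9.11 and 9.10 in CD133-negative arrays on ILMN_2950837, which overlapped (0.08 ± 0.10, and -0.09 with a median shift). On ILMN_2719296 it had 8.74, 8.86 and 8.88 in CD133-positive arrays and 8.89, 9.07 and 9.14 in CD133-negative arrays. There the CD133-positive arrays were all lower, the nearest pair of arrays being 8.88 and 8.89, with a difference of -0.20 ± 0.10 that did not pass (-0.37 with a median shift). The third Mfn1 probe, ILMN_1232014, was at background, with a mean of 4.35 ± 0.06 in CD133-positive and 4.46 ± 0.05 in CD133-negative arrays (SD, n = 3 each), and no fold is given for it. Mfn2, which also tethers mitochondria to the endoplasmic reticulum, had 9.57, 9.62 and 9.63 in CD133-positive arrays, against 9.65, 9.52 and 9.67 in CD133-negative arrays. Its populations overlapped on this single probe, ILMN_2641278, at -0.01 ± 0.08.

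Dnm1l, the fission GTPase, had 3 tested probes with differences above 0. On ILMN_2660267 it had 8.13, 8.05 and 8.22 in CD133-positive arrays, against 7.86, 7.57 and 7.88 in CD133-negative arrays, a difference of 0.36 ± 0.11 without overlap (0.22 with a median shift, and 0.26 without background correction, where it passed). ILMN_3111421 had 9.06, 9.11 and 9.05 in CD133-positive arrays and 8.79, 9.03 and 8.95 in CD133-negative arrays, 0.15 ± 0.09, also without overlap. The brightest probe, ILMN_2511121, overlapped at 0.05 ± 0.09. None of the 3 passed, and with a median shift ILMN_3111421 had -0.01 and ILMN_2511121 -0.11. The fourth Dnm1l probe, ILMN_1220522, was at background, with 4.49 ± 0.06 in CD133-positive and 4.56 ± 0.14 in CD133-negative arrays.

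Of the prohibitins, Phb2 alone was measured above background, on ILMN_1224868. It had 10.99, 10.91 and 10.53 in CD133-positive arrays, against 10.86, 11.10 and 10.93 in CD133-negative arrays, which overlapped, with a difference of -0.15 ± 0.14 (-0.31 with a median shift). The third CD133-positive array was the lowest of the 6, and without it the difference was -0.01. The single Phb probe, ILMN_2589533, was at background, with 4.57 ± 0.07 in CD133-positive and 4.43 ± 0.14 in CD133-negative arrays, so the partner subunit has no level or fold here.

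**Figure D2:**
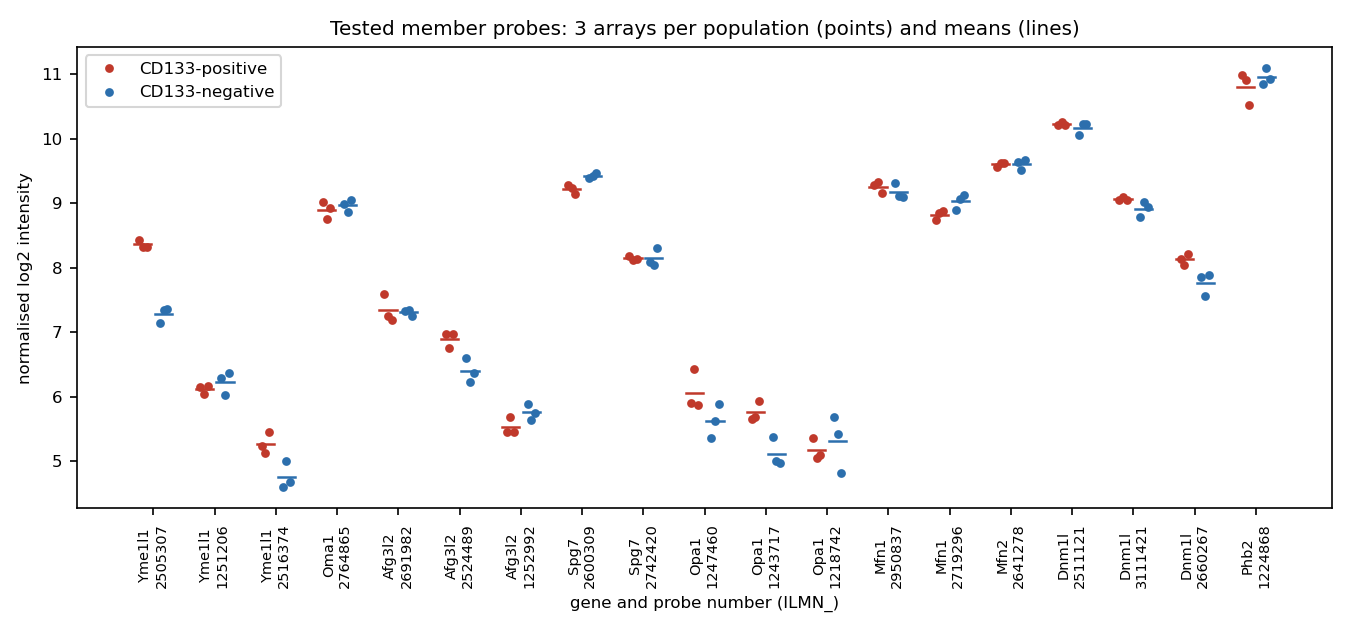
Normalised log2 intensity of each tested probe (vertical axis) on the 3 CD133-positive arrays (red) and the 3 CD133-negative arrays (blue), with lines at the means; levels of different probes are not comparable. The Yme1l1 probe ILMN_2505307 has its CD133-positive arrays at 8.33 to 8.44 and its CD133-negative arrays at 7.14 to 7.37, and most other probes overlap or lie close together.

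**Figure D3:**
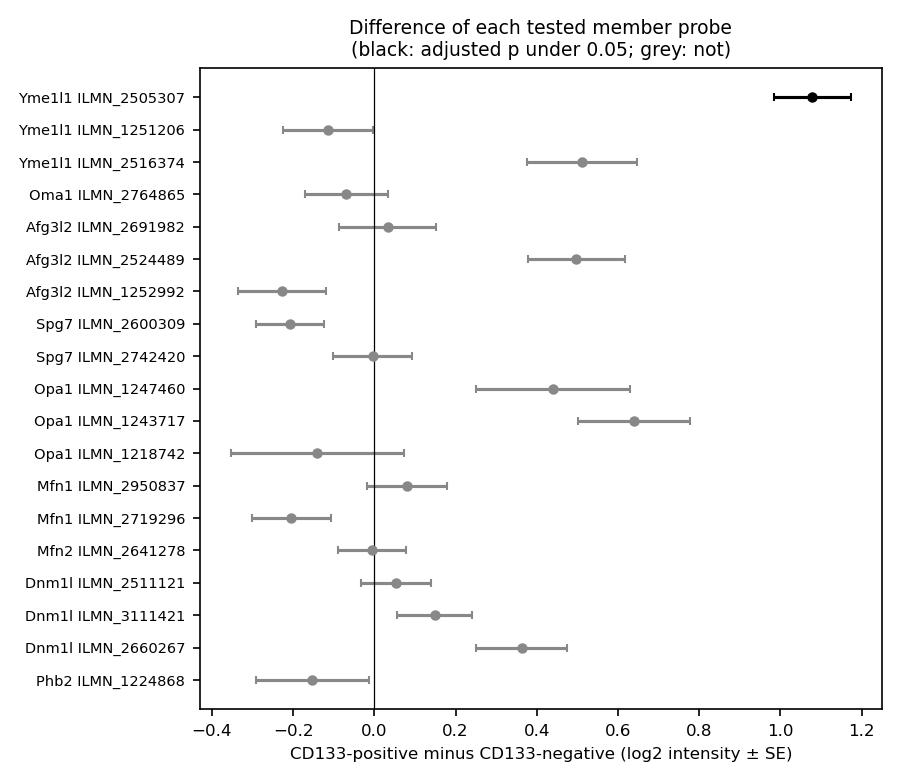
Difference of each tested probe, CD133-positive minus CD133-negative, on the log2 scale (horizontal axis) with the SE of the fit, n = 3 per group. Yme1l1 ILMN_2505307 stands at 1.08, and the other 18 probes lie between -0.23 and 0.64.

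The spread between arrays of 1 population is computed apart from the difference between the populations. A small spread helps a probe to pass, however, so for Yme1l1 ILMN_2505307 it is not independent of the test. On log2 intensities without background correction, the SD between arrays of 1 population was 0.76 to 2.60 times the error that the beads predict for the 19 tested probes, with a median of 1.28, beside a median of 1.30 over all tested probes. Phb2 had the highest ratio, 2.60, and Oma1 had 1.84. The Yme1l1 probes had 0.989, 0.877 and 0.905, so their arrays differed within a population by no more than their beads predict.

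By Pearson correlation over the 6 arrays, the genes whose tested probe was most like Yme1l1 ILMN_2505307 were Ppm1a (0.998), Pfkp (0.998), Relch (0.997), Alg5 (0.996) and Ift74 (0.994). Ppm1a encodes a protein phosphatase, Pfkp a phosphofructokinase of glycolysis, Alg5 a glycosyltransferase of the endoplasmic reticulum and Ift74 a subunit of intraflagellar transport. Their own differences between the populations were smaller, 0.43 for Ppm1a, 0.51 for Pfkp, 0.30 for Relch, 0.44 for Alg5 and 0.75 for Ift74. The likeness includes the difference between the populations that chose the Yme1l1 probe. Among the other member probes the correlation with it ran from -0.86 for Spg7 ILMN_2600309 to 0.88 for Yme1l1 ILMN_2516374.

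The other genes of these pathways were taken from 9 lists, each gene by its brightest tested probe. Of 106 genes on the array 88 were tested, and by limma 0 passed higher and 1 passed lower in CD133-positive cells, beside 1.53% of all tested probes. At an unadjusted p under 0.05 there were 10, beside 16.6% of all tested probes. The median difference over the 88 genes was -0.08, with 26 above 0 and 62 below. Over all tested probes the median was -0.02, and 7971 of 17219 were above 0. That background counts every tested probe, dimmer probes of the same gene included, while the lists take only the brightest. The background is therefore not like for like, and the excess of list genes below 0 was not tested.

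The gene that passed was Prelid1. Its protein carries phosphatidic acid between the mitochondrial membranes for cardiolipin synthesis and is degraded by YME1L1 in mammalian cells. The arrays read the transcript, and protein was not measured, so a link to Yme1l1 was not tested. The single Prelid1 probe had log2 intensities of 6.03, 6.07 and 5.90 in CD133-positive arrays, against 6.72, 6.49 and 6.60 in CD133-negative arrays. All CD133-positive arrays were lower, and Prelid1 fell by 0.60 on the log2 scale (SE 0.10, limma adjusted p = 0.0374, n = 3 per group). The call ended with a median shift (adjusted p = 0.0623), without a filter on dim probes (0.0644) and without any 1 of the 6 arrays (0.0882 to 0.121), and the difference was -0.26 without background correction. The other 11 tested genes of its list of protease scaffolds, assembly factors and substrates did not pass. Triap1, the partner of Prelid1, had 0.09 ± 0.13, the related carrier Prelid3b -0.02 ± 0.11, and Timm17a, an import subunit that is also cleared by YME1L1, 0.01 ± 0.08. Triap1, Prelid3b and Timm17a were chosen after their values were seen.

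In the list of other mitochondrial proteases, 0 of 10 tested genes passed and 1 had an unadjusted p under 0.05. Afg3l1, a further subunit of the matrix-side protease that is active in mice, had -0.26 ± 0.09 on its brightest probe, without overlap. On ILMN_2665422 and ILMN_2746055 it had -0.37 ± 0.09 and -0.15 ± 0.08, also without overlap. On the dimmer ILMN_2707782 and ILMN_2550822 it had 0.05 ± 0.18 and -0.02 ± 0.12, with overlap. None of these probes passed as reported, and the brightest passed in 3 of the 10 alternative settings that kept all arrays. Pmpcb, a subunit of the peptidase that removes import signals, had -0.32 ± 0.18. Of the fission factors and Dnm1l adaptors 0 of 8 passed, with 1 at an unadjusted p under 0.05. Fis1, an outer membrane protein of fission, had 9.97, 10.00 and 9.90 in CD133-positive arrays and 9.63, 9.67 and 9.57 in CD133-negative arrays, a difference of 0.34 ± 0.08 without overlap (limma adjusted p = 0.0964). It passed without background correction (0.30, adjusted p = 0.00331) and was 0.17 with a median shift (adjusted p = 0.464). Its other tested probe had 0.00 ± 0.09. Inf2, a formin that assembles actin at sites of division, had -0.19 ± 0.11.

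Of the fusion cofactors and transport genes 0 of 8 passed, with 1 at that level, and the 2 with the smallest p had opposite signs, -0.24 ± 0.10 for Miga2 and 0.21 ± 0.09 (0.06 with a median shift) for Chchd4, which oxidises proteins on their import into the intermembrane space. Of the cristae genes 0 of 8 passed and 0 reached an unadjusted p under 0.05. Immt, the mitofilin core of the cristae junction complex, had -0.15 ± 0.08 on its brightest probe and 0.12 ± 0.19 on another, and Micos13 had 0.10 ± 0.10 (-0.04 with a median shift). Of the genes of cardiolipin and phosphatidylethanolamine metabolism 0 of 7 passed, with 1 at that level, and Hsd17b10 had -0.25 ± 0.09 and the cardiolipin remodelling enzyme Taz -0.13 ± 0.09 on its brightest probe and 0.10 ± 0.14 on another.

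OMA1 is also known to cut DELE1 and so to relay mitochondrial stress to the integrated stress response. Of 14 tested genes of that relay 0 passed and 1 had an unadjusted p under 0.05, with a median of -0.13. Fgf21, a hormone induced by this response, had -0.32 ± 0.12 (-0.10 without background correction) and the phosphatase regulator Ppp1r15a -0.21 ± 0.10. Of 7 mitochondrial chaperones 0 passed on the brightest probe and 1 had an unadjusted p under 0.05. On the brightest probe all 7 were below 0, with a median of -0.20, and Trap1 had -0.27 ± 0.09. Dnaja3 had -0.20 ± 0.09 on its brightest probe and 0.34 ± 0.09 on ILMN_1244825, both without overlap and of opposite sign, and neither passed. Hspd1, the matrix chaperonin, had -0.20 ± 0.10 on its brightest probe and 0.56 ± 0.08 on a dimmer one that passed (limma adjusted p = 0.0311), and was chosen after its values were seen. On a dimmer tested probe Hspa9 had 0.06 ± 0.10, Grpel1 0.06 ± 0.10 and Clpb -0.11 ± 0.21. The sign on the dimmer probe was opposite for Dnaja3 and Hspd1 and the same for Clpb. For Hspa9 and Grpel1 it was also opposite, by less than the SE. Hspa9, Grpel1 and Clpb were also added after their values were seen. Of 14 genes of mitochondrial biogenesis and DNA maintenance 0 passed, 3 had an unadjusted p under 0.05, and 13 were below 0 with a median of -0.13. Ppargc1b, a coactivator of mitochondrial biogenesis, had 5.01, 4.99 and 4.53 in CD133-positive arrays, against 5.41, 5.49 and 5.40 in CD133-negative arrays, a difference of -0.59 ± 0.14 on a probe near background (limma adjusted p = 0.0911), which was -0.18 without background correction. Top1mt, the mitochondrial topoisomerase, had -0.26 ± 0.08 on its brightest probe and 0.09 ± 0.09 on another.

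**Figure D4:**
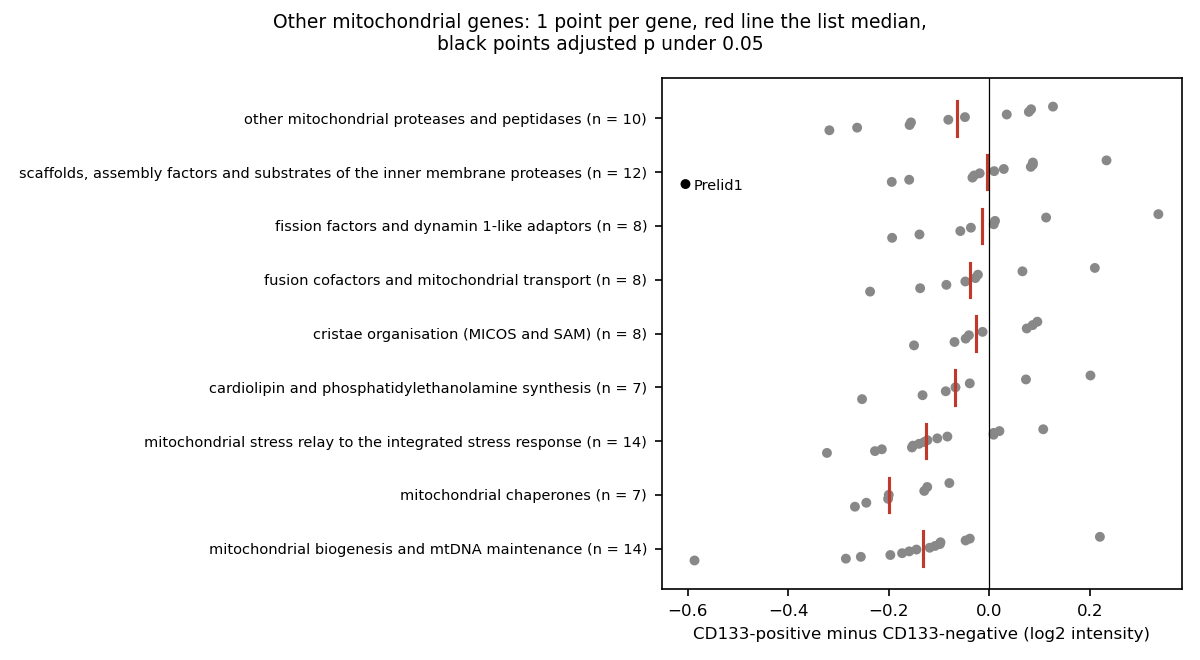
Difference, CD133-positive minus CD133-negative (horizontal axis, log2 intensity), of each tested gene in the 9 lists (rows), by its brightest tested probe, with red lines at the list medians. Prelid1 at -0.60 is the one gene that passed, and the list medians lie between -0.20 and -0.0046.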

How the data were processed

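Total RNA of 3 CD133-positive and 3 CD133-negative samples was labelled with biotin and hybridised to Illumina mouse bead arrays in 1 colour, per the labels. The deposited table held a mean bead intensity, its standard error, a bead number and a detection p-value for each probe and array, per the file headers, and these intensities were neither normalized nor background-subtracted. A second deposited table held the authors' processed intensities, and the sources used here do not give their method.

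In R 4.3.3, limma 3.58.1 (neqc) subtracted background by a normal-exponential fit, with negative controls deduced from detection p-values and an offset of 16, and log2 values were quantile normalized. Probes detected (p under 0.05) on 3 or more arrays were tested with lmFit and eBayes (two-sided, no covariates), adjusted by Benjamini-Hochberg over all 17219. The fit was tested on simulated data. Differences are CD133-positive minus CD133-negative, and the offset makes those of dim probes smaller. With background subtracted, those of the dim Opa1 probes were still larger in size than without correction. The number of arrays limits the precision. The platform annotation supplied gene symbols and gave 1 symbol to 34885 probes, several to 18 and none to 10378. List genes were matched to it by symbol, or by gene identifier through a RefSeq table. Every probe of the 10 genes is named, and from each list the genes that passed or else the 2 with the smallest p. The members and lists were chosen with earlier results of these data known.

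The alternatives were normal-exponential correction without negative controls, no background correction, the authors' intensities, a median shift, cyclic loess, other filters on dim probes, a variance trend, array weights, a replicate block, averaged probes and each array left out.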

Additional observations from a re-analysis of the deposited data

How the results depend on the processing

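All tested probes that passed numbered 264. Settings that moved this count gave 1110 (no background correction), 1157 (authors' intensities), 1095 (variance trend), 554 (detection p under 0.01 on all arrays), 113 (no filter on dim probes), 37 (median shift), 6 (replicate block) and 7 to 14 (1 array left out). These were 6.45%, 6.72%, 6.36%, 4.15%, 0.25%, 0.215%, 0.0348% and 0.0407% to 0.0813% of the probes tested in each setting, against 1.53% as reported. In the same order the 10 genes had 3, 3, 4, 2, 1, 1, 0 and 0 to 1 probes that passed, against 1 as reported. Their count was 0 without CD133-positive replicate 1, 2 or 3. Because the contrast chose the set, nothing is read from these counts. The probes that joined Yme1l1 ILMN_2505307 were Afg3l2 ILMN_2524489 in the first 4 of these settings, Dnm1l ILMN_2660267 in the first 3, and Opa1 ILMN_1243717 with the variance trend alone. The pathway genes that passed, 1 as reported, numbered 6, 6, 6, 2, 0, 0, 0 and 0 to 0. Afg3l1, Fis1, Hsd17b10 and Trap1 joined Prelid1 in the first 3 of these settings, and Fis1 alone in the fourth. Tfb2m joined in the first 2, and Cox4i1 with the variance trend. These same arrays chose Yme1l1 ILMN_2505307, so its passes are a description and no support for its rise. It passed in 9 of 10 settings that kept all arrays, with differences of 0.75 to 1.09, and missed the threshold with the replicate block. Fewer or more probes or arrays entered some of these fits; otherwise the cause was not tested.

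The median shift placed the median of all tested probes at -0.13. Under it Afg3l2 ILMN_2691982 had -0.084, Mfn1 ILMN_2950837 -0.086, Dnm1l ILMN_2511121 -0.11, Dnm1l ILMN_3111421 -0.014 and Micos13 -0.040, all opposite in sign to the values reported and all above that median. Other changes of sign were of probes near 0. Spg7 ILMN_2742420 had 0.0052 with the authors' intensities, 0.0065 with cyclic loess and 0.0069 with array weights, Mfn2 had 0.00015 with array weights, and Mfn1 had -0.062 with its probes averaged. With 1 array left out the sign changed for Spg7 ILMN_2742420 (-0.056 to 0.076), Mfn2 (-0.052 to 0.022), Oma1 (-0.13 to 0.0036), Afg3l2 ILMN_2691982 (-0.089 to 0.114), Opa1 ILMN_1218742 (-0.385 to 0.050) and Dnm1l ILMN_2511121 (-0.0044 to 0.086).

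Whether the replicate numbers pair the arrays is not stated in the labels. Deviations from the group means of same-numbered arrays correlated at 0.0202, 0.00176 and 0.0182. Those of arrays with different numbers correlated at -0.0501 to 0.0326. With 3 arrays per group, such values cannot decide whether same-numbered arrays shared a culture or sort. The replicate block left 6 probes in all, 3 higher and 3 lower, and under it Prelid1 had an adjusted p of 0.123. The number of arrays, and for the dim Opa1 probes their signal over background, limits what these values can show.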
